A study of Saccharomyces cerevisiae with 11 samples.

Results

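The peptides described here carried 2 copies of a short unit built around a phenylalanine (F), leucine (L) or tyrosine (Y) core, with the residues on either side of the core varied. They were taken by the design set named in the deposited count table, which gave 400 peptides for each of the 3 cores and 1200 of the 12400 library entries in all. Each peptide had 20 residues, namely 8 glycines followed by 2 copies of a unit made of glycine, aspartate, glycine, a left flank, the core and a right flank. Every one of the 20 amino acids stood at each flank in every combination, so each core had the same 400 flank pairs, and no 2 members had the same peptide. The study screened designed transcriptional activation domains by growth in the budding yeast strain Y2H Gold, and the insert was amplified from extracted DNA and sequenced. The cultures sampled were untreated at 0, 12 and 24 h, with the aureobasidin label 150 at 12, 24, 48 and 72 h, and with the label 200 at the same 4 times. All were grown in medium without tryptophan and diluted 100-fold daily to stay in mid-log phase. Every sample was split into 5 barcoded sub-libraries, called barcodes 1 to 5 here, whose tags were added by PCR before cloning.

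Activation domains are the parts of transcription factors that recruit coactivators and the general transcription machinery. Many are disordered stretches in which aromatic and large aliphatic side chains sit among acidic residues, and the acidic residues are thought to keep the hydrophobic ones exposed to the coactivator. Y2H Gold carries an aureobasidin resistance gene as a reporter of Gal4-driven activation, and aureobasidin is an antifungal that blocks an enzyme of sphingolipid synthesis. A cell whose peptide activates the reporter can keep dividing in the drug, so a peptide's share of the reads is a readout of growth relative to all other library members.

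The repeat units that the results turn on are shown because units built from similar hydrophobic residues ended far apart in the drug. The lower-case letters are the constant glycine-aspartate-glycine spacer, and the 3 capitals are the left flank, the core and the right flank. The first 4 units held the most reads with the label 150 at 72 h, and the next is the Y-core unit with the most.
WLW: gdgWLW
FLW: gdgFLW
MFW: gdgMFW
WFL: gdgWFL
WYL: gdgWYL
Against them stand 3 units made of aromatic residues alone, which had no read at that time.
WFW: gdgWFW
WFF: gdgWFF
WYW: gdgWYW
Below, a member is named by these 3 letters.

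The 55 sub-libraries held between 683589 and 3392656 counts, with a lowest of 1192053 at 0 h and 1176575 with the label 150 at 72 h. The shallowest groups were the 24 h samples with the labels 150 and 200. Levels are given as CPM, the count scaled to a sub-library total of 1000000, or as the percentage of the sub-library's reads. A read share is relative, so a fall means slower growth than the rest of the library or loss from it. Library entries designed with a stop codon first fell to 0.0287% of reads in the untreated culture at 24 h, against 0.400% at 0 h. None of those 153 entries had a read with the label 150 at 72 h, whereas 130 of them had at least 1 read with the label 200 at 72 h. Low levels with the label 200 at 72 h are therefore not read as growth here.

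The 1200 peptides together lost share in the untreated culture and far more in the drug. They made up 3.96% ± 0.211 of reads at 0 h, 1.80% ± 0.136 at 12 h untreated and 1.80% ± 0.141 at 24 h untreated (SD, n = 5 each). They held 1.32%, 0.699%, 0.279% and 0.0924% of reads at 12, 24, 48 and 72 h with the label 150. With the label 200 the shares were 1.65%, 1.04%, 0.325% and 0.0702% at those times. Of the 1200 members, 26 had no read in any library, among them the all-leucine unit gdgLLL. At least 1 read was found for 1174 members at 0 h, 1131 at 12 h untreated and 1060 at 24 h untreated. That number was 1059, 209, 156 and 82 at 12, 24, 48 and 72 h with the label 150.

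By share of reads the Y cores were lowest in the drug, as they were at 0 h. The F cores held 0.0493, 0.0452, 0.0189, 0.0087 and 0.0351% of reads in barcodes 1 to 5 with the label 150 at 72 h, against 1.60, 1.34, 1.45, 1.43 and 1.59% at 0 h. The L cores held 0.0341, 0.0680, 0.0392, 0.0808 and 0.0628% in those drug libraries, against 1.32, 1.48, 1.33, 1.14 and 1.31% at 0 h. The Y cores held 0.0015, 0.0101, 0.0037, 0.0020 and 0.0027%, against 1.17, 1.21, 1.22, 1.03 and 1.21% at 0 h. All 3 sums were lower in the drug in every barcode, without overlap. The Y sum was below the F and the L sum in 5 of 5 barcodes, but this order was the same at 0 h and at 24 h untreated. Across barcodes the drug values of F and Y overlap, with the lowest F value at 0.0087% and the highest Y value at 0.0101%. Those of F and L overlap as well. In the untreated culture at 24 h the shares stood at 54.3% (F), 43.7% (L) and 36.3% (Y) of their 0 h shares. By the means with the label 150 at 72 h, the shares were 47.2-fold (F), 23.1-fold (L) and 292-fold (Y) below their own 0 h shares. The 400 peptides of the same layout with tryptophan cores were 102-fold below theirs, and none of these sums was tested against another. The order of F and L turned over with time in the drug. F was above L in 4 of 5 barcodes at 0 h and at 24 h untreated, in 3 of 5 with the label 150 at 24 h, and in 1 of 5 with that label at 48 and 72 h. One peptide carried much of the L sum: without WLW the L share was 0.0291% in place of 0.0570%, while the F share without its most abundant member was 0.0209% in place of 0.0314%. One barcode carried much of the Y sum, whose mean was 0.0040% over all 5 barcodes and 0.0025% without barcode 2. With the label 200 at 72 h the folds below 0 h were 58.8 (F), 38.7 (L) and 106 (Y). Entries with a stop codon first were 93.6-fold below their 0 h share in that sample, so no difference between cores is read from these folds.

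The number of copies of the unit went with the level at every core. With the label 150 at 24 h, the 400 F-core peptides with 2 copies summed to 3138 CPM, the 400 with 1 copy to 13.5 CPM and the 400 with 3 copies to 33848 CPM. At 0 h the F-core sums were 14820 CPM for 2 copies, 3820 CPM for 1 copy and 30268 CPM for 3 copies. For L cores at 24 h with the label 150 the sums were 2815 CPM for 2 copies, 9.74 CPM for 1 copy and 32456 CPM for 3. For Y cores they were 1036, 10.4 and 5892 CPM in the same order of copies. At 72 h with that label, 2 copies held 314 (F), 570 (L) and 39.9 (Y) CPM, against 12898, 22959 and 335 CPM for 3 copies. Peptides with more copies also have a shorter leading run of glycines, and these sums were not tested against each other.

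What remained in the drug was a handful of peptides. With the label 150 at 72 h, 40 F, 25 L and 17 Y members had a read, and 14 F, 13 L and 3 Y members had at least 10 reads over the 5 libraries. The most abundant member of each core held 33.4% of that core's reads for F (MFW), 48.9% for L (WLW) and 63.3% for Y (WYL), and the leading 5 held 92.5%, 87.4% and 93.0%. At 0 h the reads were spread over many more peptides: the effective number of members, which is the reciprocal of the sum of squared shares, was 3.68 (F), 3.40 (L) and 2.28 (Y) in the drug, against 143, 153 and 154 at 0 h. A tryptophan stood at 1 or both flanks in peptides holding 93.7% of F reads, 98.9% of L reads and 69.9% of Y reads in the drug, against 29.3%, 30.5% and 23.3% at 0 h.

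Among the L cores, WLW was the most abundant. WLW had 44.6, 213, 36.3, 636 and 465 CPM in barcodes 1 to 5 with the label 150 at 72 h, against 78.7, 428, 50.9, 836 and 918 CPM at 0 h. Each barcode was lower than its own 0 h level, but the barcodes differed from each other more than the times did, and the groups overlap. At 24 h untreated WLW had 102, 724, 85.4, 1868 and 1726 CPM, above its own 0 h level in 5 of 5 barcodes. FLW, with phenylalanine on the left, had 87.8, 137, 217, 98.6 and 19.96 CPM with the label 150 at 72 h, against 226, 338, 516, 191 and 59.2 CPM at 0 h. It too was lower in each barcode, and the groups overlap. WLY averaged 47.9 ± 34.2 CPM in the drug at 72 h, against 291 ± 195 CPM at 0 h (SD, n = 5 each). YLW and LLW averaged 30.5 and 28.8 CPM in the drug, against 300.3 and 109 CPM at 0 h.

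Among the F cores, the leading units MFW, WFL and LFW paired tryptophan with an aliphatic residue. MFW had 71.1, 360, 65.2, 13.6 and 16.1 CPM in barcodes 1 to 5 with the label 150 at 72 h, against 273, 209, 321, 15.1 and 25.4 CPM at 0 h. It was higher than at 0 h in barcode 2 and lower in the other 4, and the groups overlap. WFL had 137, 51.9, 42.0, 9.35 and 265 CPM in the drug, against 474, 161, 227, 33.6 and 513 CPM at 0 h. LFW had 239, 15.0, 60.2, 26.3 and 30.5 CPM in the drug, against 1430, 164, 495, 186 and 162 CPM at 0 h. Both were lower in every barcode, LFW by a wider margin. VFF and VFW, with valine on the left, averaged 6.10 and 4.38 CPM in the drug, against 207 and 170 CPM at 0 h. VFF has no tryptophan, and its drug level came from barcode 1, with 28.8 CPM, where the others had up to 0.85 CPM.

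Among the Y cores, WYL was the most abundant. WYL had 6.04, 84.9, 20.3, 5.10 and 9.98 CPM with the label 150 at 72 h, against 231, 619, 1184, 169 and 352 CPM at 0 h, with no overlap. At 24 h it had averaged 438 CPM with the label 150 and 639 CPM without the drug. FYL averaged 7.11 ± 3.50 CPM at 72 h with the label 150, against 235 ± 119 CPM at 0 h (SD, n = 5 each). The next Y-core units by share, LYL, MYW and LYW, averaged 2.72, 1.11 and 0.889 CPM, against 116, 121 and 134 CPM at 0 h. DYY, named for its share with the label 200 at 72 h, had 2.98 CPM there, between 0.295 and 11.9 CPM over barcodes, against 29.7 CPM at 0 h, and no read with the label 150 at 72 h.

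The summed level kept differed with the flanks and was highest with hydrophobic ones in the untreated culture and with the label 150. Hydrophobic means A, V, I, L, M, F, W or Y here, and each core had 144 flank pairs with none, 192 with 1 and 64 with 2 of these residues. In the untreated culture at 24 h the summed level of all 3 cores stood at 9.06% of its 0 h value with no hydrophobic flank, 31.6% with 1 and 89.2% with 2. These values were 0.34%, 4.63% and 48.1% with the label 150 at 24 h. At 72 h they were 0.01%, 0.08% and 7.19%. The order was the same at each core in these 3 samples. With the label 200 at 72 h it was not, since the Y cores summed to 29.9, 43.7 and 36.2 CPM with 0, 1 and 2 hydrophobic flanks. At 72 h with the label 150 the sums rest on few members, since 24 of 192 with 2 hydrophobic flanks had at least 10 reads. Median log2 changes of tested members at 72 h did not have that order. They were -8.25, -8.70 and -8.63 with the label 150, where 1118 of the 1200 members had no read, and -6.33, -6.81 and -7.07 with the label 200. With 1 hydrophobic flank and the label 150 at 24 h, the F cores held 688 CPM, the L cores 157 CPM and the Y cores 35.9 CPM, against 7836, 6028 and 5164 CPM at 0 h. With 2 hydrophobic flanks they held 2446, 2641 and 994 CPM, against 4362, 4393 and 3887 CPM at 0 h. With 1 hydrophobic flank the F barcodes lay between 497 and 834 CPM and the L barcodes between 75.6 and 325 CPM, F above L in 5 of 5. With 2 hydrophobic flanks F lay between 1479 and 4375 CPM and L between 2087 and 4002 CPM, F above L in 2 of 5, so no order of F and L is read there. With the label 150 at 72 h, 6 F members with a single hydrophobic flank had at least 10 reads, namely TFW, WFN, LFC, CFF, WFD and DFW, while no L or Y member of that kind did. These 6 were picked out after their values were seen.

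Levels are also given by the residue opposite a single hydrophobic flank, where acidic means D or E, basic K, R or H, and polar S, T, N or Q. With an acidic residue on the other side and the label 150 at 24 h, the sums were 228 ± 120 CPM for F, 16.4 ± 10.97 CPM for L and 9.06 ± 14.003 CPM for Y (SD, n = 5 barcodes), which is 13.9%, 1.66% and 1.24% of their 0 h values. The F barcodes lay between 126 and 419 CPM, all above those of L and Y, and the Y sum was 3.16 CPM without barcode 3. With a basic residue the sums were 2.47 ± 3.40 (F), 13.3 ± 7.87 (L) and 0.19 ± 0.43 CPM (Y), or 0.17%, 1.10% and 0.02% of 0 h, and the F sum was 1.42 CPM without barcode 1. With a polar residue they were 261 ± 78.6, 75.5 ± 61.5 and 14.2 ± 3.49 CPM, or 11.5%, 3.65% and 0.84%. In the untreated culture at 24 h the same groups with an acidic residue were at 47.3% (F), 19.97% (L) and 23.6% (Y), and with a basic residue at 22.4%, 18.2% and 12.0%. Peptides with a basic residue at either flank summed to 0, 0.11 and 0 CPM for F, L and Y with the label 150 at 72 h.

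The make-up of the 3 varied positions, core and flanks counted together, ordered the levels across all 3 cores. Aromatic is F, W or Y and aliphatic is A, V, I, L or M. This grouping was chosen after the values were seen, and is a description. The 69 members with 2 aromatic residues and 1 aliphatic residue stood at 76.3% ± 10.8 of their own 0 h level with the label 150 at 24 h and at 12.2% ± 3.43 at 72 h (SD, n = 5 barcodes). They held 90.0% of the CPM of the 1200 members at 72 h, against 17.3% at 0 h. The 18 members with 3 aromatic residues stood at 14.3% ± 6.90 and 0.0897% of their 0 h level at those times, and none had 10 reads at 72 h. In the untreated culture at 24 h the 69 and the 18 members stood at 113% ± 5.72 and 105% ± 19.6 of their 0 h level. The 80 members with 1 aromatic and 2 aliphatic residues stood at 18.1% with the label 150 at 24 h and 1.99% at 72 h. The 144 members with 2 aromatic residues and a residue that is neither stood at 10.6% and 0.161%, and the 25 all-aliphatic members, all with an L core, at 0.61% and 0%. Within the first group the L cores kept most, at 127% ± 15.2 of their 0 h level with the label 150 at 24 h (9 members). The F cores of that group stood at 78.1% ± 18.6 (30 members) and the Y cores at 36.9% ± 9.92 (30 members). At 72 h the same sums were at 31.8% ± 15.2 (L), 11.3% ± 7.91 (F) and 1.501% ± 1.54 (Y). The L cores were not matched to the others by flanks in this group. The 9 L-core members had 2 aromatic flanks, with the core as the aliphatic residue. The 30 F and 30 Y members had 1 aromatic and 1 aliphatic flank. The difference of L from F and Y is thus not separated from that of the flanks.

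The levels of 3 all-aromatic units follow peptide by peptide. WFF had 86.1, 77.9, 62.4, 349 and 1490 CPM in barcodes 1 to 5 of the untreated culture at 24 h, against 68.6, 51.4, 59.4, 284 and 891 CPM at 0 h. It had 0, 0, 0, 0 and 50.4 CPM with the label 150 at 24 h, and it had no read at 48 or 72 h. It was therefore above its 0 h level in all barcodes without the drug and below it in all with the drug. WFW had 17.1, 0, 22.0, 15.7 and 2.24 CPM with the label 150 at 24 h, against 191, 86.3, 107, 182 and 62.0 CPM in the untreated culture at 24 h. WYW averaged 5.58 ± 7.81 CPM with the drug, against 112 ± 113 CPM without it (SD, n = 5 each). These units were set side by side after their values were seen, and WFF was named for its fall at 72 h, so the contrast is a description with no test.

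Left and right placement of a residue gave different levels, and the side with the higher level differed between cores, which was not tested. For each residue the 19 units with it on the left only were set against the 19 with it on the right only, with the label 150 at 24 h. A left methionine beside an F core gave 353 ± 227 CPM and a right one 54.5 ± 20.7 CPM, higher on the left in 5 of 5 barcodes (SD, n = 5). A left valine gave 268 ± 316 CPM and a right one 3.36 ± 7.52 CPM, also in 5 of 5, but barcode 1 alone had 803 CPM and the left mean without it was 134 CPM. Leucine beside a Y core went the other way, with 106 ± 80.2 CPM on the left and 639 ± 416 CPM on the right, higher on the right in 5 of 5 barcodes. Beside an L core a left leucine gave 175 ± 133 CPM and a right one 41.7 ± 53.7 CPM, the left higher in 5 of 5 barcodes, and the right mean without barcode 2 was 22.2 CPM. Tryptophan gave 879 CPM on the left and 1514 CPM on the right of an F core, 841 and 1112 CPM for an L core, and 477 and 187 CPM for a Y core. A few peptides carry these sums, such as WYL for leucine on the right of tyrosine. Part of these orders was present at 0 h, with smaller ratios. Beside an F core, left and right methionine then gave 1091 and 736 CPM (left higher in 4 of 5 barcodes), and valine 846 and 452 CPM (5 of 5). Leucine gave 893 and 1198 CPM beside a Y core (left higher in 1 of 5) and 861 and 688 CPM beside an L core (3 of 5). Tryptophan beside an F core went the other way at 0 h, with 2158.5 and 2063 CPM. Lysine at either flank of an F or Y core left no read with the label 150 at 24 h.

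Exchanging the core with a flank kept the composition and changed only the order. Of 120 such exchanges, 5 were ordered the same way in 5 of 5 barcodes with the label 150 at 24 h, against 30 at 0 h. Most exchanges thus gave no constant order in either sample. In the drug sample 991 of the 1200 members had no read, and an exchange between 2 unread members cannot be ordered. The lower number there is therefore not read as a lack of an effect of order. The 5 ordered exchanges in the drug were LFL over FLL (59.3 and 1.73 CPM), LYL over YLL and over LLY (31.9 CPM and no read in either), WYF over WFY (20.7 CPM and no read) and FYF over FFY (18.8 CPM and no read). The same order was already present at 0 h in 5 of 5 barcodes for LFL and FLL, LYL and YLL, and WYF and WFY. Their levels then were 127 and 24.4, 116 and 25.7, and 85.9 and 8.76 CPM. That order was present in 4 of 5 for LYL and LLY (116 and 82.9 CPM) and for FYF and FFY (62.7 and 18.3 CPM). With the label 150 at 24 h FYL had 187 CPM and YFL 56.9 CPM, in that order in 4 of 5 barcodes. At 0 h they had 235 and 181 CPM, in the same order in 4 of 5 barcodes. WYL and WLY were close at 24 h, at 438 and 444 CPM, and apart at 72 h, at 25.3 and 47.9 CPM with the same label. At 0 h they had 511 and 291 CPM, WYL higher in 4 of 5 barcodes. At 72 h WLY was the higher in 4 of 5, and each mean had 1 barcode far above the others (84.9 CPM for WYL and 108 CPM for WLY). These exchanges were not tested.

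The tests across single members used edgeR's quasi-likelihood fit to all library entries with a mean of at least 10 counts, total counts as library sizes and a Benjamini-Hochberg threshold of 0.05. Members pass that filter through the sample where they are high, so those tested are the ones that started at a measurable level. In the untreated culture at 24 h against 0 h, 364 of 891 members tested were lower, while the background over all entries was 26.7% lower and 0% higher. No member was higher, also at an unadjusted p under 0.05 and by DESeq2. By core, 107 of 307 F, 142 of 302 L and 115 of 282 Y members were lower. By flanks, 179 of 263 members with no hydrophobic flank were lower, 165 of 457 with 1 and 20 of 171 with 2, with median log2 changes of -3.94, -2.67 and -1.31. The median over all entries tested was -1.87. Those tested were 263 of 432, 457 of 576 and 171 of 192 members, so the filter kept unequal parts of the 3 flank groups. With a minimum mean of 50 counts, 0 of 206 members were lower. These counts and medians are therefore not read as an order by flanks. The number of lower members was 217, 233, 171, 290 and 213 without barcode 1, 2, 3, 4 and 5 in turn. With TMM scaling, which moved the median of all entries to -0.61, 55 members were lower (background 3.97% lower, 0% higher).

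Barcodes of one number moved together across samples, and with the barcode as a block the same comparison called 808 members lower and 10 higher (background 74.6% lower and 9.12% higher). The 808 were 260 F, 281 L and 267 Y members, and 263 of them had no hydrophobic flank, 435 had 1 and 110 had 2. The 10 were WFL, VFW, LFW, MFW, WFF, WYL, WLW, FLW, WLY and WLF, each above its own 0 h level in 5 of 5 barcodes. Their blocked changes lay between 0.28 (WYL, adjusted p = 0.00248) and 0.82 on the log2 scale (WLW, adjusted p = 4.60e-10). Without the block the change of WLW was 0.96 (SE 0.94, adjusted p = 0.490). WFF, which had no read in the drug at 48 and 72 h, stands in this list with 0.42 (adjusted p = 0.000659).

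The drug itself was compared with the untreated culture at 24 h. Lower with the label 150 were 111 of 228 members tested, against a background of 37.7% lower and 0% higher. They were 48 of 99 F, 25 of 64 L and 38 of 65 Y members, and no member was higher, at an unadjusted p under 0.05 or by DESeq2 as well. All 11 tested members with no hydrophobic flank were lower, 69 of 119 with 1 and 31 of 98 with 2. Those tested were 11 of 432, 119 of 576 and 98 of 192 members. Only 14 of the 432 had a read with the label 150 at 24 h. The filter therefore kept members that were high in the untreated culture, for which a fall was nearly given. No order by flanks is read from these counts. With the barcode as a block 184 were lower and 0 higher (background 58.2% lower and 19.2% higher). These were 81 F, 48 L and 55 Y members, of which 11 had no hydrophobic flank, 104 had 1 and 69 had 2. Without the filter on low counts 341 of 1061 members were lower, against 3345 of 10818 entries. With a minimum mean of 50 counts 10 of 74 were lower, against 450 of 2818 entries. The excess over the background thus depends on the filter.

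By 72 h with the label 150, 846 of 852 members tested were lower than at 0 h, where 88.6% of all entries tested were lower and 1.96% higher. None of the members was higher, nor was any by DESeq2, with TMM scaling, or before adjustment at 0.05. The 6 not called were WFL (log2 change -1.48, SE 0.89, adjusted p = 0.121), MFW (-0.68, SE 0.97, adjusted p = 0.509), LLW (-1.91, SE 0.92, adjusted p = 0.0553), WLW (-0.73, SE 0.92, adjusted p = 0.454), FLW (-1.25, SE 0.79, adjusted p = 0.138) and WLF (-1.92, SE 1.03, adjusted p = 0.0838). All 6 carry a tryptophan flank. With the barcode as a block, 5 of them were lower (edgeR adjusted p between 5.14e-05 and 0.000861) and MFW was not (adjusted p = 0.0737). The sign of FLW, MFW, WFL and WLW turns positive with TMM scaling (all but WFL also with DESeq2), so their fall is relative to total counts. The median log2 change of the members was -8.54 and that of all entries -8.40 (-7.68 with TMM scaling). LFW was lower by edgeR (-2.71, SE 0.94, adjusted p = 0.00975), as were WLY (-2.60, SE 0.79, adjusted p = 0.00389) and WYL (-4.33, SE 0.98, adjusted p = 0.000295). With TMM scaling and with DESeq2 LFW and WLY were not called.

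The steepest falls reached 0 reads, so only a bound can be given, with 3 counts over the 5 libraries as the floor. Each bound sets the 0 h reads pooled over 5 libraries against that floor, each per pooled total, so it differs somewhat from one taken on the barcode means. With the label 150 at 72 h, 1118 of the 1200 members had no read. Among them the size of a bound follows from the 0 h reads alone. The bounds therefore give no ranking of members or cores. Against 0 h, WFF was at least 817-fold lower with the label 150 at 72 h and WFC at least 782-fold lower. Both had been at or above their 0 h mean without the drug at 24 h, at 413 and 246 CPM, against 271 and 213 CPM at 0 h. The L-core falls named by the rule were CLF, at least 402-fold lower, and YLM, at least 380-fold lower. The Y-core ones were YYC, at least 503-fold lower, and IYW, at least 474-fold lower. WFW and WYW were at least 419-fold and 289-fold lower.

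With the label 200 at 72 h, 855 of 856 members were lower than at 0 h, against a background of 91.2% lower and 1.88% higher, and none was higher at an unadjusted p under 0.05 or by DESeq2. MFW was the one not called (log2 change -1.62, SE 0.94, adjusted p = 0.0958), and it was lower without barcode 2 (-3.31, edgeR adjusted p = 0.00384) and with the barcode as a block (-2.09, adjusted p = 8.45e-09). This comparison depends on scaling more than the others: the median of all entries was -6.65 with total counts and -2.25 with TMM scaling. With TMM scaling 316 members were lower and 4 higher (background 39.1% lower and 10.3% higher), and the 4 were WFL, MFW, WLW and FLW.

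At matched flank pairs, the core difference was tested as the difference of the log2 changes against 0 h. With the label 150 at 72 h, F was above L at 2 of 225 pairs (background over matched pairs of units in 1, 2 and 3 copies 4.72%) and below it at 4 (background 2.64%). F was above Y at 3 of 213 pairs (background 9.73%) and below it at 0 (background 0.195%), where the unadjusted p was under 0.05 at 8 and 1 pairs. L was above Y at 8 of 208 pairs (background 9.68%) and below it at 0 (background 0.593%), with 11 and 1 at the unadjusted p. All of these shares lie under the background. The pairs lower in F than L were W/W, W/F, Y/W and W/M, all with a tryptophan. At W/W the F unit had no read and the L unit 279 CPM with the label 150 at 72 h, against 127 and 462 CPM at 0 h (edgeR adjusted p = 4.81e-05). At W/F the F unit had no read and the L unit 24.9 CPM, against 271 and 95.0 CPM at 0 h (edgeR adjusted p = 0.000257). YFW had 1 read in the drug, and the Y/W difference of F minus L was -6.32 (SE 1.57, edgeR adjusted p = 0.00507). F was above L at T/W, with 2.96 CPM and no read against 90.9 and 89.7 CPM at 0 h, and at C/F, with 1.40 CPM and no read against 68.0 and 121 CPM (edgeR adjusted p = 0.0243 and 0.00929).

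The pairs at which tyrosine stood lower than another core all had a tryptophan flank, except F/F. F minus Y was 6.20 at M/W (SE 1.54, edgeR adjusted p = 0.00505), 4.39 at L/W (SE 1.29, adjusted p = 0.0220) and 3.96 at V/W (SE 1.29, adjusted p = 0.0457). MFW held 105 CPM in the drug and MYW 1.11 CPM, against 169 and 121 CPM at 0 h. L minus Y was 7.04 at W/F (SE 1.60, edgeR adjusted p = 0.00196), 5.81 at F/W (SE 1.46, adjusted p = 0.00559) and 5.19 at L/W (SE 1.29, adjusted p = 0.00505). FLW held 112 CPM and FYW 0.1998 CPM, against 266 and 36.3 CPM at 0 h. The other L over Y pairs were W/W, W/M, I/W, F/F and Y/W, at each of which the Y unit had no read. At Y/W the L unit was the higher, relative to 0 h, in 2 of 5 barcodes by log2 CPM, and barcode 2 held 110.4 of its CPM, against 3.25 to 17.2 CPM in the others. The counts move with single barcodes. F was above L at 0 pairs without barcode 1 and at 1 pair without barcode 2, 3, 4 or 5. T/W and C/F were thus never both called with a barcode left out. F was below L at 3 or 4 pairs in those fits. Over units in 1, 2 and 3 copies, the same fits called F above L at 14 to 20 pairs and below at 11 to 14, of 467 to 546 tested. F against Y gave 1 pair without barcode 4 or 5, and L against Y gave 5 without barcode 3. With the barcode as a block, F was above Y at 5 pairs (background 11.7%).

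In the untreated culture at 24 h no matched pair passed the threshold in either direction for any 2 cores, with a background of 0% in each. At an unadjusted p under 0.05, F was above L at 17 of 244 pairs and below at 8, F above Y at 5 of 233 and below at 4, and L above Y at 5 of 223 and below at 16. With the barcode as a block, F was above L at 28 pairs and below at 6 (background 13.6% and 2.41%). F was above Y at 17 and below at 4 (background 8.65% and 1.26%), and L was above Y at 7 and below at 6 (background 5.34% and 5.16%). Averaged over all 400 pairs on the log2 CPM scale with a prior of 2 counts, F minus L was 0.41 ± 0.11 at 24 h untreated, against 0.06 ± 0.11 at 0 h (SD, n = 5 each), without overlap. The average differences at 72 h with the label 150, relative to 0 h, were -0.09 (F minus L), -0.23 (F minus Y) and -0.14 (L minus Y). The last 2 had that direction in 5 of 5 barcodes without overlap with 0 h, and F minus L in 4 of 5 with overlap. Neither core had a read at 72 h in 347 (F and L), 352 (F and Y) and 365 (L and Y) of the 400 pairs, so for those pairs the change mirrors the difference at 0 h.

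Over the 64 pairs with 2 hydrophobic flanks the average was less affected by empty pairs, but not free of them. With the label 150 at 72 h, 21 F, 20 L and 12 Y members of these 64 per core had a read. Many pairs were thus still empty in 1 or both cores, and the averages at 72 h rest on few units. F minus Y was -0.14 ± 0.18 at 0 h, 0.56 ± 0.20 with the label 150 at 24 h, 0.48 ± 0.03 at 48 h and 0.25 ± 0.07 at 72 h (SD, n = 5 each). L minus Y was -0.06 ± 0.30 at 0 h, 0.48 at 24 h, 0.71 ± 0.17 at 48 h and 0.54 ± 0.05 at 72 h. F minus L was -0.08 ± 0.28 at 0 h, 0.08 at 24 h, -0.22 at 48 h and -0.29 ± 0.11 at 72 h, and its values at 72 h overlap those at 0 h.

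Units with aspartate, glycine, proline or lysine on both sides had no read with the label 150 at 24 to 72 h. That is not particular to equal flanks, since 14 of the 432 members without a hydrophobic flank had a read with that label at 24 h. With aspartate, which adds acidic charge, DLD had 0.31 CPM at 24 h untreated, against 15.7 CPM at 0 h, and DYD had 9.05 CPM, against 46.1 CPM. DFD had 1 read at 0 h and none at 24 h. With glycine, GFG, GLG and GYG had 1.79, 0.47 and 0 CPM at 24 h untreated, against 9.14, 20.2 and 5.43 CPM at 0 h. With proline, which breaks helices, PFP, PLP and PYP had 6.75, 12.4 and 3.51 CPM, against 41.0, 61.3 and 14.1 CPM. With the basic residue lysine, KFK, KLK and KYK had 0.48, 0 and 0 CPM, against 1.15, 3.73 and 5.84 CPM. These 12 units make up part of the 432. Leucine flanks differed: LFL had 110 CPM and LYL 73.0 CPM at 24 h untreated, against 127 and 116 CPM at 0 h. Both still had reads with the label 150 at 72 h, at 3.29 ± 0.78 CPM for LFL.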

How the data were processed

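DNA of the designed inserts was sequenced in 11 samples of 5 barcodes each. The deposited table holds whole-number read counts per library entry and barcode. Reads were processed with cutadapt and STAR, per the submitters' processing notes, and how reads were assigned to entries is not given in the sources used here. Groups were taken from sample titles. The labels 150 and 200 are printed without a unit because the labels give conflicting ones, and one protocol text describes the antibiotic for all samples, the untreated ones included. All 55 count columns were mapped. The repeat units are given as amino acids, as the table lists them.

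The labels call the 5 barcodes biological replicates, and nothing says that they came from separate cultures, so p-values measure the spread between barcoded sub-libraries. Same-numbered barcodes deviated together in all 4 comparisons (correlations of deviations from the group means between 0.550 and 0.910; the highest between different numbers was -0.111), so the number was taken to pair them. Main tests were edgeR 4.0.16 quasi-likelihood fits in R 4.3.3 (limma 3.58.1) on the groups compared, with total counts as library sizes, a mean count of at least 10 and Benjamini-Hochberg adjustment over all entries or all matched pairs. Alternatives were DESeq2 1.42.0, TMM scaling, no filter, a minimum mean of 50 counts, the barcode as a block and leaving out each barcode. The fits were tested on simulated counts with 200 changed entries. Summaries used python 3.11.15, numpy 2.4.6 and pandas 2.3.3. PCR reads carry no molecular identifiers, so floors (3 counts) cover counting error only.

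The members and lists were chosen with earlier results of these data known. For each core the text names the 5 members with the highest rise with the label 150 at 72 h, and the 3 with the label 200 at 72 h, filled by read share since no rise passed. It also names the 2 steepest falls, the flank pairs D/D, L/L, W/W, G/G, K/K and P/P, and up to 3 matched pairs per direction and pair of cores. Other members named for their reads, order or block result were chosen after their values were seen.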

Additional observations from a re-analysis of the deposited data

Results flagged for a closer look

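In 17 of 81 groups of 5 barcodes, 1 barcode stood far from the other 4, with a gap to its nearest neighbour above 0.71 of the group's range (Dixon's criterion, which chance meets in about 1 in 20 groups). Among the read shares, the F cores stood at 0.498% in barcode 1 with the label 150 at 24 h, where the other 4 lay between 0.232% and 0.305%. The L cores stood high in barcode 2, at 0.766% in the untreated culture at 24 h (others 0.492% to 0.561%), 0.411% with the label 150 at 24 h (others 0.227% to 0.259%) and 0.548% with the label 200 at 24 h (others 0.359% to 0.377%). The Y cores stood low in barcode 4 at 0 h, at 1.03% (others 1.17% to 1.22%), and high in barcode 2 with the label 150 at 72 h, at 0.0101% (others up to 0.0037%).

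Among the mean core differences over matched flank pairs, F minus L was low in barcode 2 at 0 h, at -0.13 (others 0.06 to 0.13), and high in barcode 3 with the label 150 at 24 h, at 0.22 (others 0.09 to 0.13). F minus Y was low in barcode 2 with the label 150 at 12 h, at 0.32 (others 0.40 to 0.43).

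Among single members with the label 150 at 72 h, MFW stood at 360 CPM in barcode 2 (others 13.6 to 71.1 CPM) and LFW at 239 CPM in barcode 1 (others 15.0 to 60.2 CPM). VFF stood at 28.8 CPM in barcode 1 (others up to 0.85 CPM), WLY at 108 CPM in barcode 1 (others 22.1 to 41.6 CPM) and YLW at 110.4 CPM in barcode 2 (others 3.25 to 17.2 CPM). WYL stood at 84.9 CPM in barcode 2 (others 5.10 to 20.3 CPM), LYL at 8.87 CPM in barcode 5 (others up to 2.32 CPM) and MYW at 4.25 CPM in barcode 4 (others up to 0.93 CPM). For MFW, barcode 2 was also the only one above its own 0 h level.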

How the results depend on the processing

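With the replicate block, which pairs barcodes of one number, the lower members were 808 at 24 h untreated (364 without it) and 184 with the label 150 at 24 h (111 without it), the higher members at 24 h untreated were 10 in place of 0, and the matched pairs called at 24 h untreated were 34 (F against L), 21 (F against Y) and 13 (L against Y) in place of 0. F against Y with the label 150 at 72 h gave 5 pairs in place of 3. The counts by core and by number of hydrophobic flanks moved with these totals, as given above, and over all library entries the higher ones at 72 h were 391 with the block and 171 without it (label 150) and 301 and 165 (label 200). The block changed no other count of members or matched pairs by over 1.5 times, and the single members whose call it changed at 72 h were WFL, LLW, WLW, FLW and WLF with the label 150 and MFW with the label 200. TMM scaling gave 55 lower members at 24 h untreated, and 316 lower and 4 higher with the label 200 at 72 h. DESeq2 gave 236 of 891 lower at 24 h untreated, against 1548 of 9000 entries. With no filter on low counts 638 of 1174 members were lower at 24 h untreated, against 4922 of 12025 entries. For the label 150 at 24 h they were 341 of 1061, against 3345 of 10818 entries. With a minimum mean of 50 counts these were 0 of 206 and 10 of 74, against 0 of 4037 and 450 of 2818 entries. At 72 h with that minimum they were 123 of 129 (label 150) and 130 of 132 (label 200), against 2410 of 3374 and 2630 of 3391 entries. With the label 150 at 24 h the share of members was thus near that of all entries in both settings. Leaving out 1 barcode gave 171 to 290 lower members at 24 h untreated. With the label 150 at 72 h it gave 3 to 5 pairs for F against L, of which 0 or 1 had F above L. It gave 1 to 2 pairs for F against Y and 5 to 8 for L against Y.

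The mean core differences depend on how pairs are weighted. With summed CPM per core, F minus L was -1.20 (label 150 at 72 h) and -0.63 (label 200 at 72 h), F minus Y was 2.68, 0.78 and 0.58 (label 150, label 200 and 24 h untreated), and L minus Y was 3.89, 1.41 and 0.27, the last 3 and the first 2 of F minus Y with the opposite sign to the mean over pairs. Over the 168 pairs with at least 20 counts at 0 h for all cores, F minus L was -0.19 (label 150 at 72 h), F minus Y 0.27 (24 h untreated) and L minus Y 0.0748, 0.0165 and -0.0840, the first 2 with the opposite sign. F minus L at 24 h untreated was 0.52 with a prior of 0.5 counts and 0.17 with a prior of 10. The share of L cores with the label 150 at 72 h without its most abundant member, an alternative chosen after seeing the data, was 0.0291%.

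Of 47 results on single members, 419 alternatives kept the direction and the side of the threshold, 13 lost the call, 9 gained it and 18 turned the sign, all of the last with TMM scaling or DESeq2. With the label 150 at 72 h, TMM and DESeq2 gave 0.36 and 0.0783 for FLW, 0.87 and 0.67 for MFW and 0.70 and 0.52 for WLW, and TMM gave 0.16 for WFL. With the label 200 at 72 h, TMM and DESeq2 gave 2.54 and 0.42 for FLW, 3.10 and 1.13 for MFW, 2.51 and 0.36 for WFL and 2.36 and 0.52 for WLW, and TMM gave 0.91 for LFW, 1.08 for WLY and 1.43 for DYY. The cause was not tested. No member shared a peptide with another entry, so leaving such members out changed nothing. Depth limits the 72 h values, where 10 reads over 5 libraries is about 1 CPM.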
